A study of Mus musculus with 12 samples.

Results

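The derlins are a family of 3 mouse genes, Derl1, Derl2 and Derl3, that encode small multi-pass proteins of the endoplasmic reticulum (ER) membrane. A probe set of the array was taken as a member when the platform annotation gave it exactly 1 gene symbol and that symbol was a derlin, and where a gene had several such probe sets the one with the highest mean over the 12 arrays was used. All 3 genes were found, out of 22180 genes measured by a probe set with 1 symbol. Derl1 and Derl3 each had 1 probe set, Derl2 had 2, and a further probe set shared by Derl2 and Mis12 was not used.

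Expression was measured in brown adipose tissue, on 12 whole-transcript arrays, 3 in each of 4 groups. The groups were adipocyte-specific Sel1L knockout mice at room temperature, Sel1L f/f littermates at room temperature, adipocyte-specific Sel1L knockout mice at 4 °C and Sel1L f/f littermates at 4 °C. All mice were on the C57BL/6J background and all had been fasted for 5 h. The knockouts (Sel1LAdipCre) carried an Adiponectin-Cre transgene and the littermates, labelled wildtype and called controls here, carried the floxed Sel1L alleles without a stated Cre. The Adiponectin promoter drives Cre in adipocytes of every depot, so the gene stays intact in the other cells of the tissue, and the labels used here give neither age nor sex.

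Derlins are rhomboid-fold proteins that have lost the protease activity of their relatives. They sit beside the Sel1L-Hrd1 ubiquitin ligase complex in ER-associated degradation (ERAD), the route by which misfolded proteins are pulled out of the ER, tagged with ubiquitin and handed through the ATPase p97 to the proteasome. Derl1 and Derl2 are expressed in most tissues, whereas Derl3 is best known from secretory tissues, and derlin genes are induced by the unfolded protein response, the transcriptional program that follows when misfolded proteins build up in the ER. The comparisons below address how this gene family reads when the adaptor it works with, Sel1L, is deleted in adipocytes, with and without cold.

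A sequence element of that program is found in front of Derl3. The ER stress response element (ERSE), read by the transcription factors ATF6 and XBP1 together with the factor NF-Y, was searched as CCAAT, 9 free bases and CCACG on both strands of the RefSeq promoter windows (GRCm38.p6; 250 bases before to 50 bases after each annotated start). Its ends overlap by construction with the shorter motifs CCAAT and CCACG. The sequence of Derl3 is shown because it holds such a match, in capitals, on the strand opposite to the gene and 156 to 138 bases upstream of the start. Windows were found for 2 of the 3 genes, and the bases before the start are given 5′ to 3′ on the strand of the gene.
Derl3 (chr10:75893148-75893397, plus strand): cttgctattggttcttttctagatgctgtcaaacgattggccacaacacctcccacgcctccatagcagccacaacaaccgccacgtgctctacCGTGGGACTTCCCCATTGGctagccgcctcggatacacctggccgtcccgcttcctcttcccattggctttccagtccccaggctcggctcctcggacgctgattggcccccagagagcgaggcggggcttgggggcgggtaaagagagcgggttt
Derl2 is shown beside it. Its 2 annotated starts held no ERSE in their windows, and capitals mark CCAAT and CCACG on either strand.
Derl2, downstream start (chr11:71019304-71019553, minus strand): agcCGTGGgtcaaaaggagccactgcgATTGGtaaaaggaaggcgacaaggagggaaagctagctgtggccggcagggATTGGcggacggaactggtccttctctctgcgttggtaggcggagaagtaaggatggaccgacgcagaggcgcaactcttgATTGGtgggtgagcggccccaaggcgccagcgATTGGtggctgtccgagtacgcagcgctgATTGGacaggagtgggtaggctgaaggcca
Derl2, upstream start (chr11:71019842-71020091, minus strand): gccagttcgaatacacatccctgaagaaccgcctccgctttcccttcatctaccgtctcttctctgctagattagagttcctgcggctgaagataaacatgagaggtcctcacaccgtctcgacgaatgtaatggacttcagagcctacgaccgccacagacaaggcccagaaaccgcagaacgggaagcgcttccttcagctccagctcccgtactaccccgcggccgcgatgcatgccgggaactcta
The window of the downstream Derl2 start had 5 CCAAT motifs, and 1 CCACG motif too far from them in spacing to make an ERSE, while the upstream start had neither motif. The Derl3 window had 5 CCAAT and 3 CCACG motifs, of which 1 pair made up the ERSE. ERSE matches occurred in 39 of 32851 windows (0.119%), CCAAT in 37.4% and CCACG in 32.8%. The related elements ERSE-II (ATTGG, 1 free base and CCACG; 0.0365% of windows) and UPRE (TGACGTGG; 0.676%) were found in neither gene. A match is a description of these letters and no measurement of binding, and a missing match says only that the letters are not in the window.

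Values are log2 expression values, and differences between groups were tested with limma over 23521 probe sets with 1 symbol, with Benjamini-Hochberg adjustment over all of them and an adjusted p under 0.05 called a change. Across the 12 arrays the medians of all probe sets lay between 2.03 and 2.09. Sel1l, the targeted gene, read 6.18, 6.09 and 5.92 in the arrays labelled knockout at room temperature, against 7.37, 6.96 and 7.23 in the controls (-1.12 ± 0.14 SE, adjusted p = 0.00114, limma), and 6.90, 6.73 and 6.54 in the arrays labelled knockout at 4 °C, against 6.99, 6.69 and 7.04 in the controls (-0.19 ± 0.14, adjusted p = 0.605), so that this reading does not check the label at 4 °C. Where probes lie relative to the deleted part of the gene was not used here. The labels of control replicate 3 at room temperature conflict, since its source name gives 4 °C instead. It was kept with its title, and each derlin call that it changes is given without it or with it placed among the 4 °C controls. Brown adipocyte markers read high, led by Ucp1, the uncoupling protein of brown fat, at a mean of 12.64.

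Derl3 was the derlin that differed most. At room temperature it read 7.75, 7.83 and 7.69 in the arrays labelled knockout, against 3.12, 2.58 and 2.64 in the controls. All arrays labelled knockout lay above all controls, and the lowest of them, at 7.69, was far from the highest control, at 3.12. Such a separation, with every array labelled knockout above every control, was seen in 8.76% of all probe sets at room temperature and in 11.2% at 4 °C. The fold was 31.4 (log2 difference 4.97 ± 0.15 SE, n = 3 per group, 95% interval 4.64 to 5.31, adjusted p = 5e-09, limma). Among the 23521 probe sets this was rank 2 by log2 difference and rank 1 by p. At 4 °C Derl3 read 9.09, 9.20 and 9.24 in the arrays labelled knockout, against 3.04, 3.47 and 3.11 in the controls. The groups were again far apart, at 62.6-fold (5.97 ± 0.15, 95% interval 5.64 to 6.30, adjusted p = 5.27e-10), rank 1 both by log2 difference and by p. The control values, 2.58 to 3.47, lay in the lower part of the scale but above the array medians of 2.03 to 2.09. No detection call was used here, so whether these control values lie above background is not known. Both folds of Derl3 thus hold on the RMA scale only. In tissue RNA, fewer cells of a type and less RNA per cell cannot be told apart.

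Derl1, which recruits p97 to the ER membrane, differed less. At room temperature it read 9.59, 9.97 and 9.36 in the arrays labelled knockout, against 8.85, 8.73 and 8.84 in the controls. The arrays labelled knockout all lay above the controls, as in 8.76% of all probe sets, and the difference was 1.78-fold (0.83 ± 0.17 SE, n = 3 per group, 95% interval 0.47 to 1.19, adjusted p = 0.024, limma). At 4 °C it read 10.07, 10.25 and 10.03 in the arrays labelled knockout, against 8.92, 8.52 and 9.06 in the controls. Every array labelled knockout was above every control, as in 11.2% of all probe sets, with Derl1 up 2.43-fold (1.28 ± 0.17, 95% interval 0.92 to 1.64, adjusted p = 0.000416). At room temperature Derl1 was no longer called when control replicate 1 (adjusted p = 0.0694), 2 (0.0904) or 3 (0.0657) or knockout replicate 1 (0.0573) or 2 (0.0785) was left out, nor with control replicate 3 among the 4 °C controls (0.0761). At 4 °C it stayed called with any 1 array removed, the highest adjusted p being 0.00345.

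Derl2, a partner of the Sel1L-Hrd1 complex, differed by 0.74 at room temperature and 0.82 at 4 °C, against 0.83 and 1.28 for Derl1. At room temperature it read 5.32, 5.55 and 5.57 in the arrays labelled knockout, against 4.92, 4.83 and 4.46 in the controls. The arrays labelled knockout all lay above the controls, as in 8.76% of all probe sets, and Derl2 rose 1.67-fold (0.74 ± 0.14 SE, n = 3 per group, 95% interval 0.44 to 1.04, adjusted p = 0.0171, limma). At 4 °C it read 5.56, 5.67 and 5.69 in the arrays labelled knockout, against 4.62, 4.88 and 4.96 in the controls. That difference was 1.77-fold (0.82 ± 0.14, 95% interval 0.52 to 1.12, adjusted p = 0.00324), again without overlap, as in 11.2% of all probe sets. Derl2 missed the threshold at room temperature when control replicate 3 (adjusted p = 0.0589), knockout replicate 2 (0.0649) or knockout replicate 3 (0.0694) was left out, and, with control replicate 3 among the 4 °C controls, it differed by 0.60 (0.13). The second Derl2 probe set, with a mean of 1.99 over the 12 arrays and thus at the level of the array medians, differed by 0.06 ± 0.26 at room temperature (adjusted p = 0.964) and by 0.63 ± 0.26 at 4 °C (adjusted p = 0.237), and was called at neither temperature.

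**Figure D1:**
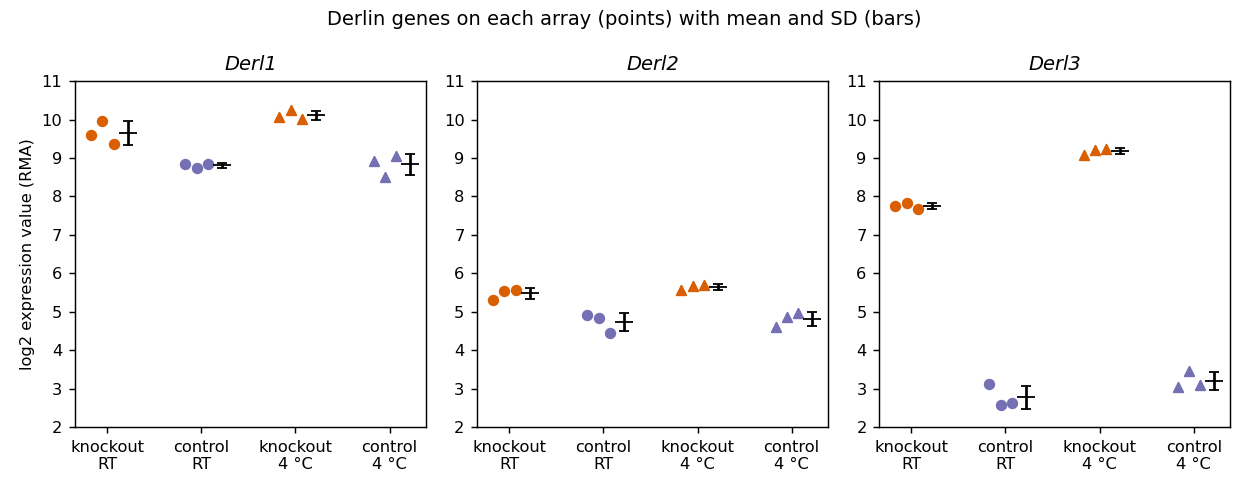
Log2 expression values (y axis, RMA) of Derl1, Derl2 and Derl3 on each of the 12 arrays (points), with the group mean and SD as bars to the right of the points; knockout arrays are orange, controls purple, room temperature (RT) circles and 4 °C triangles. In each panel all arrays labelled knockout lie above all controls of the same temperature (8.76% of all probe sets at room temperature and 11.2% at 4 °C do so), and Derl3 spans the widest range, with 9.24 as its highest value at 4 °C in the arrays labelled knockout and 2.58 as its lowest in the controls at room temperature.

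All 3 derlins were therefore called higher in the arrays labelled knockout at both temperatures. The background was 1.72% of probe sets called at room temperature, 1.29% higher and 0.429% lower, and 5.8% called at 4 °C, 3.61% higher and 2.19% lower. Of all probe sets, 1.05% were called higher at both temperatures. The size of the genotype difference was not equal among the genes. Averaged over the temperatures, the difference of Derl3 exceeded that of Derl1 by 4.41 on the log2 scale and that of Derl2 by 4.69 (two-sided exact permutation over the 400 relabellings of genotype within temperature, p = 0.005 for each, the smallest they can give, and 0.0075 adjusted over 3 pairs). The excess over Derl1 was 4.14 at room temperature and 4.69 at 4 °C, and that over Derl2 4.23 and 5.15. Derl2 and Derl1 differed by -0.28 in this measure, -0.09 at room temperature and -0.46 at 4 °C (exact permutation p = 0.135, adjusted p = 0.135), which was not past the threshold. With knockout replicate 3 at room temperature left out it passed (-0.37, adjusted p = 0.035). Each probe set has its own scale, so these are unequal changes and not unequal levels.

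None of the derlins was called for cold in the controls. Derl3 read 3.04, 3.47 and 3.11 in the controls at 4 °C, against 3.12, 2.58 and 2.64 at room temperature. The groups overlapped, and the difference of 0.42 ± 0.15 SE was not called (n = 3 per group, 95% interval 0.09 to 0.76, adjusted p = 0.105, limma). Without control replicate 1 at room temperature it was 0.59 and was called (adjusted p = 0.0248), and it was 0.21 with control replicate 3 among the 4 °C controls. Derl1 differed by 0.03 ± 0.17 (95% interval -0.34 to 0.39, adjusted p = 0.962) and Derl2 by 0.08 ± 0.14 (-0.22 to 0.39, adjusted p = 0.81), with overlapping groups in both. In this comparison 11.1% of probe sets were called, 6.23% with a lower and 4.85% with a higher value in the cold.

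In the arrays labelled knockout, Derl3 was the derlin that rose with cold. Its values of 9.09, 9.20 and 9.24 at 4 °C, against 7.75, 7.83 and 7.69 at room temperature, gave a 2.68-fold difference (1.42 ± 0.15 SE, n = 3 per group, 95% interval 1.09 to 1.75, adjusted p = 0.000206, limma). The groups were separate, and leaving out any single array kept the adjusted p at or below 0.00187. Derl1 was also higher on every cold array, 10.07, 10.25 and 10.03 at 4 °C, against 9.59, 9.97 and 9.36 at room temperature, as were 11.7% of all probe sets, but its difference of 0.47 ± 0.17 was not called (95% interval 0.11 to 0.84, adjusted p = 0.109). With knockout replicate 2 at room temperature left out it was 0.64 and called (adjusted p = 0.0369). Derl2 differed by 0.16 ± 0.14 (95% interval -0.14 to 0.46, adjusted p = 0.61), with overlapping groups. Of all probe sets 9.03% were called in this comparison, 4.32% higher and 4.7% lower, and with each array centred on its median the calls were 1183 higher and 851 lower, against 1017 and 1106 as deposited.

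Whether the genotype difference itself depended on temperature was tested by the difference between the cold responses. It was 1.00 ± 0.22 SE for Derl3 (n = 3 per group, 95% interval 0.52 to 1.47, unadjusted p = 0.000571, adjusted p = 0.0878, limma), 0.45 ± 0.24 for Derl1 (-0.06 to 0.96, adjusted p = 0.594) and 0.08 ± 0.20 for Derl2 (-0.35 to 0.51, adjusted p = 0.946). None was called, whereas 0.306% of probe sets were, 0.23% higher and 0.0765% lower. For Derl3 the adjusted p stayed between 0.0658 and 0.206 when single arrays were left out. In order of level, Derl3 thus ran from the cold arrays labelled knockout, through those at room temperature, to the controls of both temperatures, whose ranges overlapped. Derl1 had the same order, with overlapping controls and with cold and room temperature arrays labelled knockout that did not overlap but were not called different. For Derl2 both the arrays labelled knockout and the controls overlapped across temperatures.

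**Figure D2:**
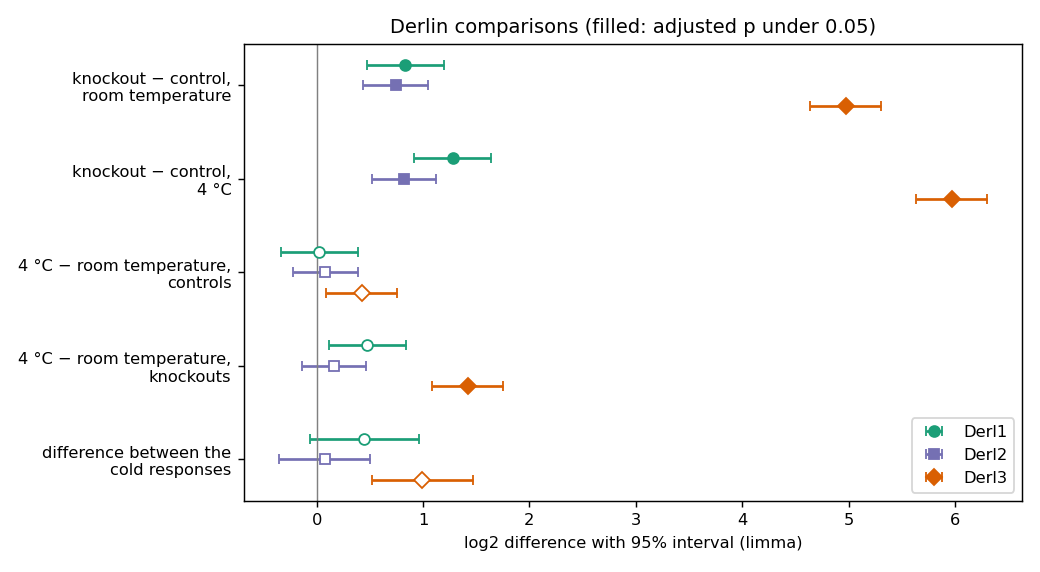
Log2 differences (x axis) of Derl1 (circles), Derl2 (squares) and Derl3 (diamonds) in the 5 comparisons (rows), with 95% intervals from limma as horizontal bars; filled symbols have an adjusted p under 0.05. The genotype differences of all 3 genes are filled, with Derl3 at 4.97 and 5.97, and of the cold differences only that of Derl3 in the arrays labelled knockout, 1.42, is filled.

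Other RNA in the tissue was measured beside these results. Skeletal muscle markers varied widely. At room temperature the mean log2 value of 12 markers ran from 3.16 to 6.800 in the arrays labelled knockout. In the controls it ran from 6.803 to 7.65, so every array labelled knockout lay below every control. The median genotype difference of the 12 markers there was -2.49, with 0 called (limma; 8 had an unadjusted p under 0.05). At 4 °C it ran from 2.77 to 7.06 in the arrays labelled knockout and from 5.36 to 8.28 in the controls. With this score as a covariate Derl3 differed by 4.93 at room temperature and 5.95 at 4 °C, and both stayed called. The differences of Derl1 (0.89, adjusted p = 0.0911) and Derl2 (0.74, adjusted p = 0.0946) at room temperature were as large as without it but no longer called. Derl3 is strongly expressed in plasma cells and in the exocrine pancreas, and the markers of both averaged near or below the array medians. The 8 measured plasma and B cell markers averaged 1.85 to 1.89 in the arrays labelled knockout and 1.75 to 2.10 in the controls at room temperature. At 4 °C they averaged 1.79 to 1.90 in the arrays labelled knockout and 1.85 to 1.90 in the controls. The immunoglobulin chain Jchain had the highest mean of these, 2.90, and the B cell antigen Ms4a1 the lowest, 1.34. The 5 acinar markers averaged 1.37 to 1.48 in the arrays labelled knockout of both temperatures and 1.33 to 1.65 in the controls. Brown adipocyte markers averaged 10.07 to 10.10 in the arrays labelled knockout at 4 °C, against 10.25 to 10.30 in the controls, and 10.29 to 10.31 in those at room temperature, against 10.31 to 10.38 in the controls. Macrophage, endothelial and fibroblast scores overlapped between genotypes at each temperature. The part of the muscle and adipocyte differences in the derlin results was not otherwise tested.

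Around the derlins, the pathway was read by gene lists. Among 22 measured ER membrane partners, which are the ligases, lectins and adaptors that work with derlins, 4 rose and 1, Sel1l, fell at room temperature, with a median difference of 0.20, against -0.01 over all probe sets. Of all probe sets 1.29% were called higher and 0.429% lower. Selenos, the selenoprotein that links derlins to p97, rose by 1.42 ± 0.12 (adjusted p = 3.5e-05, limma), and Edem1, a lectin-like mannosidase that delivers glycoproteins to ERAD, by 1.30 ± 0.13. Syvn1 encodes the ligase Hrd1 and rose by 1.12 ± 0.23 (adjusted p = 0.0249). It missed the threshold on removal of any of 5 single arrays, with the highest adjusted p, 0.0906, when knockout replicate 2 was removed, and with control replicate 3 among the 4 °C controls (0.0979), where 2 genes of the list rose. At 4 °C, where 3.61% of all probe sets were called higher, 9 partners rose and 0 fell, with a median of 0.40. Syvn1 (2.84 ± 0.23), Selenos (2.27 ± 0.12), Edem1 (2.08 ± 0.13) and the membrane adaptor Herpud1 (1.69 ± 0.15) led them, each with an adjusted p of 1.53e-05 or less. Herpud1, which recruits the ligase complex, differed by 0.19 ± 0.15 at room temperature (adjusted p = 0.683), and its interaction of 1.51 ± 0.21 was called (adjusted p = 0.0116). That interaction was not called when knockout replicate 2 at 4 °C was removed (0.0534) or with control replicate 3 among the 4 °C controls (0.0905). The interaction of Os9, a lectin that brings glycoproteins to the ligase, was 0.92 ± 0.15 (adjusted p = 0.0294, and 0.099 and 0.18 in those settings). Its call was lost on removal of any of 9 single arrays.

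The steps after the derlins were read next. Of 21 measured cytosolic extraction and delivery factors, which include p97 and its cofactors, 0 were called at room temperature (limma; 5 had an unadjusted p under 0.05), with a median of 0.0029, and at 4 °C 2 rose and 0 fell, with a median of 0.07. These were Ubqln2, a shuttle to the proteasome (0.79 ± 0.19, adjusted p = 0.0302, not called on removal of any of 5 single arrays, with 0.119 as the highest adjusted p), and Get4 of the membrane protein targeting complex (0.69 ± 0.13, adjusted p = 0.00602). Of the 11 other genes of the rhomboid superfamily, the structural relatives of the derlins, 0 were called for genotype at either temperature (limma; 3 had an unadjusted p under 0.05 at each), with medians of -0.01 and 0.11. Whether these lists differ from the derlins was not tested, and the medians stand beside those of all probe sets, -0.01 at both temperatures. Of all probe sets 1.72% were called at room temperature and 5.8% at 4 °C. At such shares lists of 21 and 11 genes can hold few calls or none, so these counts do not set them apart.

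Upstream of the derlins stand the genes of the unfolded protein response. Among 15 sensors and transcription factors 4 rose at room temperature and 8 at 4 °C, and 0 fell, with medians of 0.45 and 0.90. Of all probe sets 1.29% were called higher at room temperature and 3.61% at 4 °C. Xbp1, whose spliced form activates derlin genes, rose by 1.47 ± 0.14 at room temperature (adjusted p = 9.6e-05, limma) and by 2.07 ± 0.14 at 4 °C (adjusted p = 1.42e-06). Eif2ak3, the gene of the sensor PERK, rose by 0.87 ± 0.14 and 1.46 ± 0.14, Ddit3, the gene of CHOP, by 1.22 ± 0.14 and 1.36 ± 0.14. Creb3l2, a membrane-bound transcription factor, rose by 1.70 ± 0.12 at 4 °C and was called in the interaction (1.53 ± 0.16, adjusted p = 0.00169, and 0.0613 with control replicate 3 among the 4 °C controls). An array probe set does not separate the spliced from the unspliced form of Xbp1. Of 24 measured target genes of ATF6 and XBP1, a list that shares Edem1, Herpud1 and Syvn1 with the partners, 22 rose at room temperature and 24 at 4 °C, with medians of 1.29 and 2.24. At room temperature the count was 20 without control replicate 3. The list was chosen with earlier results of these data known. With cold, 19 of the 24 rose in the arrays labelled knockout and 0 fell, and in the controls 3 rose and 2 fell. Of all probe sets, 4.32% rose and 4.7% fell in the arrays labelled knockout, and 4.85% and 6.23% in the controls. With control replicate 3 among the 4 °C controls, 16 rose in the arrays labelled knockout, and in the controls 0 were called (limma). The interaction tests the difference between these cold responses gene by gene. It was called higher for 0.23% of all probe sets. Of the 24 genes it was called for 6, all positive, against 1 with that array moved and 2 with it left out. Those with the 4 largest values were Creld2 (2.05 ± 0.34, adjusted p = 0.0294), Syvn1 (1.71 ± 0.32, 0.0492), Dnajc3 (1.56 ± 0.28, 0.0391) and Herpud1. Each missed the threshold when knockout replicate 2 at 4 °C was removed (adjusted p of 0.099, 0.123, 0.12 and 0.0534 in that order). Counted over single arrays, removal lost the call of Creld2 for 8 of them, of Syvn1 for 11, of Dnajc3 for 10 and of Herpud1 for 1. Sdf2l1, a cofactor of ER chaperones, stood closest to Derl3, at 5.05 ± 0.20 and 5.90 ± 0.20. The list ran from 0.19 to 5.05 at room temperature and from 0.82 to 5.90 at 4 °C, so that Derl3 lay beside its highest member, and Derl1 and Derl2 in its lower part.

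**Figure D3:**
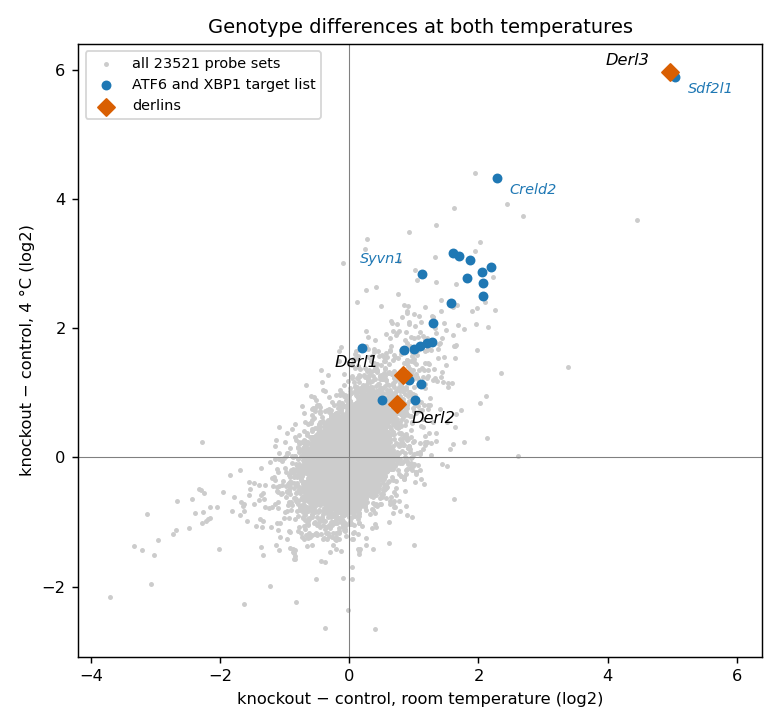
Knockout minus control log2 differences at room temperature (x axis) and at 4 °C (y axis) for all 23521 probe sets (grey), the measured ATF6 and XBP1 target genes (blue) and the derlins (orange diamonds). Derl3 lies at 4.97 and 5.97 beside Sdf2l1, at 5.05 and 5.90, while Derl1 and Derl2 lie at the edge of the grey cloud.

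**Figure D4:**
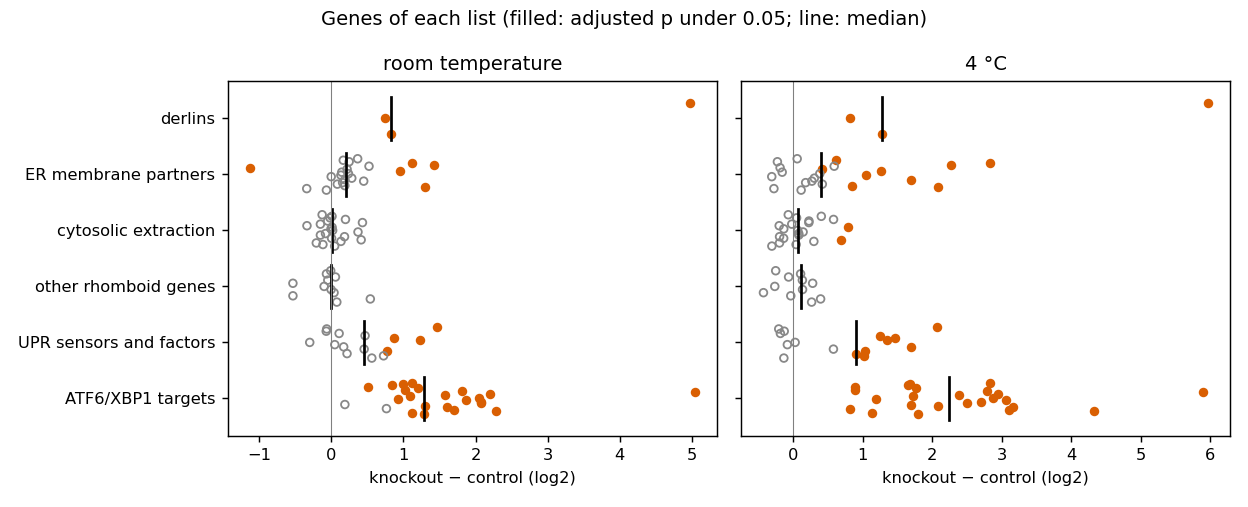
Knockout minus control log2 differences (x axis) of each gene of the derlin family and of 5 lists (rows), at room temperature (left) and at 4 °C (right); filled points have an adjusted p under 0.05, open points do not, the short black line is the median and the grey line is 0. Filled points number 3 of 3 among the derlins in both panels and 22 of 24 and 24 of 24 among ATF6 and XBP1 targets, and none is seen among the other rhomboid genes. Of all probe sets 1.72% were called at room temperature and 5.8% at 4 °C.

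The ERSE letters were then set beside the expression differences. Of the genes with an ERSE match in a window, 29 had a probe set. At room temperature 10 of them rose and 0 fell (34.5% higher), against 1.36% higher among all 16990 genes with a window and a probe set. At 4 °C 12 rose and 1 fell (41.4% higher, against 3.8%), and 16 were not called. Derl3 had the largest difference of the 29 at both temperatures, followed at 4 °C by Creld2, an ER-resident secreted protein, at 4.33. Derl3 is itself 1 of the 29, and 8 others belong to the ATF6 and XBP1 list, all of which rose at both temperatures. Beyond Derl3 and that list, the ER oxidase gene Ero1b was the only one of the 29 called at room temperature. The share is thus not separate from the counts of that list, which was chosen with earlier results of these data known. No test was made of this share. The match of Derl3 is shown beside those of the 5 ATF6 and XBP1 targets that have a match and the largest differences at 4 °C, a choice made after their values were seen. They are written from CCAAT to CCACG with the motif letters in capitals and the free bases between them in lower case.
Derl3 (chr10:75893242-75893260, minus strand): CCAATggggaagtcCCACG
Creld2 (chr15:88819520-88819538, minus strand): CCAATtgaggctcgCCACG
Dnajc3 (chr14:118937827-118937845, plus strand): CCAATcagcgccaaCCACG
Pdia6 (chr12:17266491-17266509, plus strand): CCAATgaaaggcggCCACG
Syvn1 (chr19:6046532-6046550, plus strand): CCAATcggcggtagCCACG
Hspa5 (chr2:34772025-34772043, plus strand): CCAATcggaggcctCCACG
The 5 outer bases on each side are alike by construction, and the 9 free bases differ from gene to gene. Of the genes shown, Hspa5 encodes the chaperone BiP, Pdia6 a disulfide isomerase and Dnajc3 a co-chaperone of BiP. Hspa5 rose by 2.07 and 2.71, Pdia6 by 2.20 and 2.95 and Dnajc3 by 1.61 and 3.17 at room temperature and at 4 °C. Derl2, without such a match in its windows, rose by 0.74 and 0.82. Canx, a target gene with a match, rose by only 1.11 and 1.13. Of the 22 ATF6 and XBP1 target genes with a window, 8 had a match, although nearly all measured genes of that list rose. Whether a match goes with the size of a rise was not tested. A window for Derl1 was not used here.

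The genes whose pattern over the 12 arrays was most like that of each derlin were named by Pearson's r, among 12598 probe sets with a mean above the median of all values. These correlations describe arrays that fall into 4 groups and share one normalization, and they carry no test. For Derl3 they were Slc35b1, which carries ATP into the ER (r = 0.996), the vesicle coat subunit Copg1 (0.995), Sdf2l1 (0.994), the chaperone gene Hsp90b1 (0.993) and the calcium-binding chaperone gene Calr (0.992). After each group's mean was removed, r with Derl3 ranged from -0.16 for Sdf2l1 to 0.39 for Slc35b1. For Derl1 the nearest genes were Rpn1 of the oligosaccharyltransferase (0.986), Nucb2 (0.981), Ostc of the same transferase (0.979), the ER oxidase gene Ero1a (0.975) and Tmem167b (0.975). Their r with Derl1 after removal of the group means was 0.74 to 0.89, a value that the choice of genes by r over the same arrays partly fixes. For Derl2 they were Ddit3 (0.961), Krtcap2 of the oligosaccharyltransferase (0.960), the lipid phosphatase gene Plpp5 (0.957), the GTPase gene Arf1 (0.953) and Slc35b1 (0.952), with r of 0.46 to 0.71 after removal of the group means.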

How the data were processed

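RNA from brown fat was hybridised to 12 whole-transcript arrays, 3 per group. The authors deposited log2 expression values of 41345 probe sets. The submitters' processing notes name RMA, which corrects background, quantile-normalizes arrays and summarises probes, without a version. The number of arrays limits the precision. Values run from 0.27 to 13.02 and were not centred per gene. Raw intensities were not used here.

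Sample titles gave the groups. The labels do not say that replicate numbers pair animals, or that arrays stand for separate mice beyond their replicate number, so p-values cover only the spread between arrays. Of the probe sets, 23521 carried 1 symbol, 1814 several and 16010 none in the platform annotation. Linear models (limma 3.58.1, R 4.3.3; lmFit, contrasts.fit, eBayes) had 1 mean for each group and took in the 12 arrays together, without a brightness filter; the procedure was tested on simulated data. Each difference has the knockout, or 4 °C, on top.

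Genotype differences of pairs of derlins were compared by exact permutation in Python 3.11.15. Of 155 entries in 12 gene lists, 146 were measured. The members and lists were chosen with earlier results of these data known. The text names the 3 derlins, Sel1l, up to 4 called genes per list with the largest genotype differences, up to 4 called in the interaction, and the 5 genes most like each derlin. Promoter windows are from RefSeq.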

Additional observations from a re-analysis of the deposited data

How the results depend on the processing

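Derl3 kept its genotype calls at both temperatures and its cold call in the arrays labelled knockout under every alternative run, with differences of 4.87 to 5.14, 5.84 to 6.11 and 1.35 to 1.47. Derl1 kept its call at 4 °C under each alternative (1.12 to 1.39), and Derl2 did except on its other probe set (0.63, adjusted p = 0.237). At room temperature the calls of Derl1 and Derl2 were lost in fits of the compared arrays alone (0.83 and 0.74, adjusted p = 0.0662 and 0.0752), with control replicate 3 among the 4 °C controls (0.85 and 0.60, 0.0761 and 0.13) and after adjustment for the muscle score (0.89 and 0.74, 0.0911 and 0.0946). That of Derl1 was also lost over all probe sets (0.83, 0.0546) and that of Derl2 on its other probe set (0.059, 0.964). The cause of these losses was not tested, beyond the fewer arrays or other probe sets that the settings use.

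With the replicate number as a block, Derl1 at room temperature had a difference of 0.83 and an adjusted p of 0.0547, 47 interactions were called, and no other derlin call changed. Deviations from the group means correlated by more than 0.1 in 2 of 18 same-numbered pairs of arrays, so the numbers were not taken to pair the samples.

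Small cold differences in controls changed sign, that of Derl2 to -0.15 with control replicate 3 among the 4 °C controls and to -0.15 on its other probe set, and that of Derl1 to -0.0060 after a second quantile normalization. With single arrays left out, no sign changed except in small cold differences in controls and in the interaction of Derl2, and the genotype differences at room temperature ranged from 0.67 to 0.97 for Derl1 and from 0.60 to 0.83 for Derl2. The cold differences in controls ranged from -0.087 to 0.18 (Derl1), -0.057 to 0.18 (Derl2) and 0.29 to 0.59 (Derl3), that of Derl1 in knockouts from 0.33 to 0.64, the interaction of Derl2 from -0.021 to 0.22, and the Derl2 minus Derl1 genotype effect from -0.37 to -0.18.

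Counts of called probe sets ranged, with single arrays left out, from 255 to 458 (404 with all) for genotype at room temperature and from 842 to 1345 (1365) at 4 °C, from 1608 to 2875 (2606) for cold in controls and 1276 to 2300 (2123) in knockouts, and from 21 to 123 (72) for the interaction. For genotype at room temperature they were 245 with only the arrays compared and 193 with the muscle score. With control replicate 3 among the 4 °C controls they were 177 for genotype at room temperature, 0 for cold in controls by limma (3602 at an unadjusted p under 0.05), 1044 for cold in knockouts and 17 for the interaction. The interaction count was 22 over all probe sets and 41 with the muscle score. Of the list counts for genotype, that of the ER membrane partners at room temperature moved, to 2 with control replicate 3 among the 4 °C controls.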

Other observations

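Over the 12 arrays r was 0.88 between Derl1 and Derl2, 0.94 between Derl1 and Derl3 and 0.95 between Derl2 and Derl3. These values include the differences between the groups. After each group's mean was removed, which leaves the spread of 3 arrays per group, r was -0.0040, -0.14 and 0.48 in that order. Both sets are given as a description without a test.

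Among the genes with an ERSE match outside the lists, Ero1b, an ER oxidase gene, was higher in the arrays labelled knockout by 1.32 at room temperature (adjusted p = 0.00614, limma) and by 3.11 at 4 °C (adjusted p = 1.7e-06), and Alg12, a mannosyltransferase gene of glycan assembly, by 0.91 at 4 °C (adjusted p = 0.0238). Acacb, an acetyl-CoA carboxylase gene, was the gene with an ERSE match that fell, by 1.18 on the log2 scale at 4 °C (adjusted p = 3.73e-05). These genes were chosen after their values were seen.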
